A study of Mus musculus with 12 samples.

Results

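The collagen genes of mouse cortex were the 44 genes whose symbol had the form Col, a number, a and a number, of 36047 genes in the table, and their 224 transcripts were summed to genes. Of these, 11 encode fibrillar chains, 9 encode chains of basement membranes and 24 encode other chains, namely 6 of beaded filaments, 9 that attach to fibrils, 3 short chains, 4 transmembrane chains and 2 remaining. RNAseq libraries had been made from poly(A) RNA of the cortex of WT mice and of global *Gde2*KO mice. The knockout mice lack GDE2, a surface enzyme encoded by *Gdpd5* that releases GPI-anchored proteins. There were 3 WT and 3 *Gde2*KO animals of 4 months and 3 WT and 3 *Gde2*KO animals of 19 months, 12 libraries in all, and no library was of a sorted cell type. The libraries of 4 months are numbered 1 to 3 as labelled, and those of 19 months are called A, B and C because their columns carried no number.

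Collagens are secreted or membrane proteins whose chains wind in threes into a triple helix through repeats of glycine and 2 further residues. Fibrillar chains build the fibers of connective tissue, which in brain lie mainly in the meninges and around larger vessels. Type IV chains form the network of the basement membrane under endothelium and at the glial surface, and beaded filament chains of type VI link it to fibers. Several other collagens are made by neurons, among them the transmembrane collagen of *Col25a1*, whose shed ectodomain was found in amyloid plaques. In RNA of whole cortex, fewer cells of a type cannot be told apart from less RNA per cell.

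Several libraries stood apart before any comparison. The libraries 4-month WT 1 and 2 had summed levels of 12 hippocampal markers of 357 and 321 normalized TPM, against 47.7 to 59.6 in the other 4 libraries of 4 months and 33.3 to 73.2 at 19 months. These hippocampal levels go against their label of cortex. Summed levels of 10 striatal markers were 1149 to 2936 in the other 4 libraries of 4 months, 281 and 170 in WT 1 and 2, and 270.1 to 769 at 19 months. The high striatal levels go against a label of cortex alone in the same way. Fits without WT 1 and 2 keep these 4 libraries, so that age and brain region cannot be told apart there either. The library 4-month WT 1 had the lowest summed level of 16 markers of fibroblasts and meninges, with 349 against 1427 to 3212. Not each marker was low there, as the fibroblast marker *Dcn* was high in that library. The 4 Y-linked genes of the table summed to 3.64 to 5.62 normalized TPM in all libraries of 4 months and in 19-month *Gde2*KO A, and to 91.0 to 111 in the other 5 libraries of 19 months, so that age and sex cannot be told apart in most of the comparison by age. Depth was 46434259 to 59728495 estimated reads at 4 months. At 19 months it was 6734475 in WT A, 3707928 in *Gde2*KO A and 36915256 to 44604732 in the others. The targeted gene *Gdpd5* had a log2 fold change of -0.85 in *Gde2*KO at 4 months (limma, adjusted p = 0.463) and fell by 1.11 at 19 months (adjusted p = 0.0111). It had 12.3, 12.7 and 24.4 normalized TPM in 4-month WT and 9.34, 14.9 and 8.87 in 4-month *Gde2*KO, with overlap. At 19 months it had 16.6 to 20.6 in WT and 8.72 to 12.1 in *Gde2*KO. RNA of the gene thus remained in every knockout library.

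Levels between genes were compared on normalized TPM, which are per length. The beaded filament chain *Col6a1* had the highest mean over the 12 libraries, 35.5 normalized TPM. It was followed by the basement membrane chain *Col4a2* with 20.8, *Col26a1* with 18.0 and *Col4a1* with 16.7. The next were the fibril-associated *Col16a1* with 15.8, the transmembrane *Col25a1* with 15.3, *Col9a2* with 11.6 and *Col6a2* with 10.2. The fibrillar chain *Col11a1* had 9.30, the fibril-associated *Col19a1* 9.19, the fibrillar *Col5a1* 8.26 and the fibril-associated *Col9a3* 8.20 normalized TPM. These 12 genes held 70.7% of the summed collagen level, and 33 of the 44 genes had a mean above 1. The lowest means were those of *Col10a1* with 0.175 and *Col4a4* with 0.160 normalized TPM. The libraries of a gene ranged widely beside these steps, from 17.2 to 45.0 for *Col6a1* and from 12.3 to 33.7 for *Col4a2*, and all neighbours among the 12 overlapped in range.

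**Figure D1:**
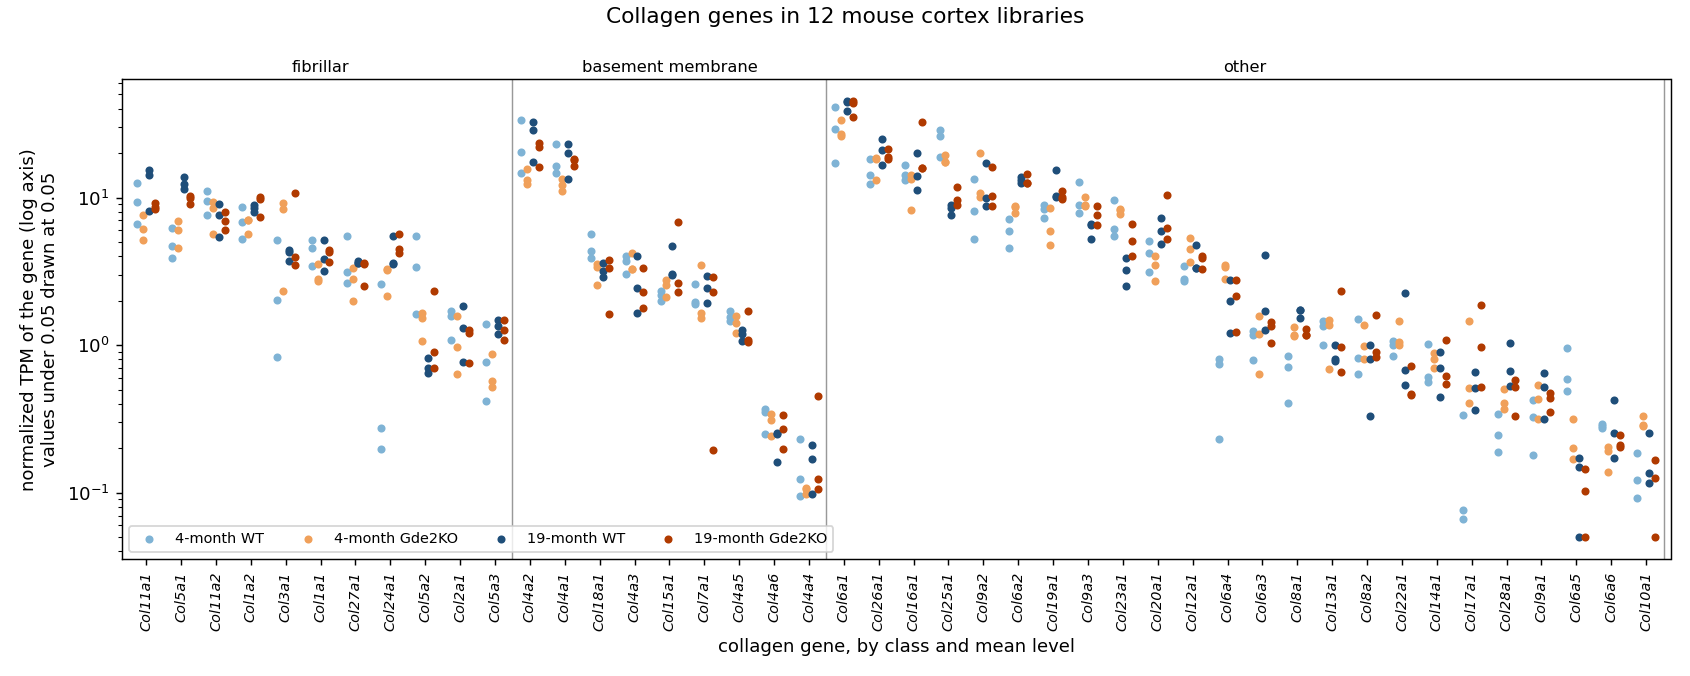
Normalized TPM of each of the 44 collagen genes on a log axis, ordered by class and by mean level, with 1 point for each of the 12 libraries colored by group. *Col6a1* lay highest, and *Col24a1*, *Col17a1* and *Col6a4* had libraries of 4-month WT far under their other libraries.

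Part of this order came from short transcripts that encode no chain. Of *Col26a1*, 23.0% of the normalized TPM lay in protein-coding transcripts, and 45.6% lay in a retained intron transcript of 578 bases. Of *Col9a2*, 22.7% lay in protein-coding transcripts and 77.3% in a processed transcript of 752 bases. By protein-coding transcripts alone, *Col26a1* held rank 16 and *Col9a2* rank 22 of the 44. For 8 members less than 50% of the level lay in protein-coding transcripts, and for 22 more than 90% did. *Col25a1* had 55.0% of its level in the coding transcript ENSMUST00000106353.1 of 6701 bases and 29.7% in a transcript subject to nonsense-mediated decay. That coding transcript held 52.5% ± 1.42 (SD, n = 3) of the gene in 4-month WT, 60.3% ± 6.50 in 4-month *Gde2*KO, 56.7% ± 6.08 in 19-month WT and 50.6% ± 4.16 in 19-month *Gde2*KO, so that its share moved little beside its level.

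**Figure D2:**
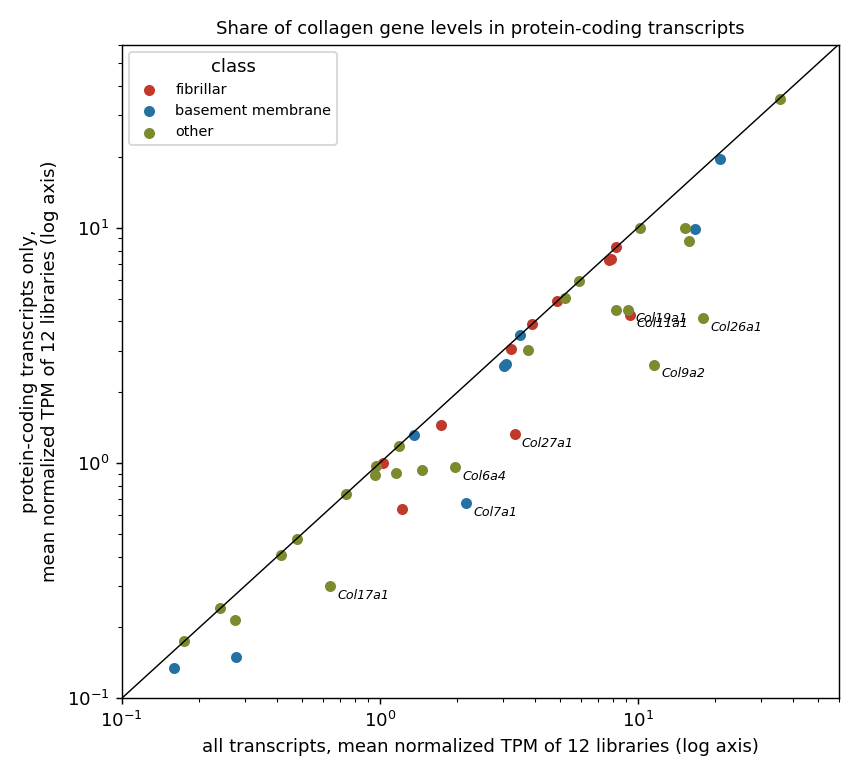
Mean normalized TPM of the 12 libraries over all transcripts of a collagen gene (x, log axis) against its protein-coding transcripts alone (y, log axis), with 1 point a gene colored by class and a line of equality. The 8 named genes have less than 50% of their level in protein-coding transcripts.

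By class, summed normalized TPM of all collagen genes were 242.4 ± 29.3 (SD, n = 3) in 4-month WT, 225.7 ± 11.3 in 4-month *Gde2*KO, 273.6 ± 32.2 in 19-month WT and 269.2 ± 14.6 in 19-month *Gde2*KO. Fibrillar chains made up 20.8% of the collagen level, basement membrane chains 20.2% and the other chains 59.0%. Fibrillar chains summed to 43.1 to 56.8 in the 6 libraries of 4 months and 53.4 to 64.2 in those of 19 months. The 4 transmembrane chains summed to 32.8, 39.6 and 26.6 in 4-month WT and 29.1, 27.8 and 27.9 in 4-month *Gde2*KO. They summed to 11.6, 13.6 and 13.5 in 19-month WT and 22.5, 14.3 and 16.3 in 19-month *Gde2*KO, so that the ages did not overlap in this class. Most of that sum was *Col25a1*.

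Genomic arrangement and promoters of the members were taken from the annotation. Pairs of neighbouring collagen genes included *Col3a1* and *Col5a2* on chromosome 1 with 24.6 kb between them, *Col6a2* and *Col6a1* on chromosome 10 with 85.2 kb, and *Col6a6*, *Col6a5* and *Col6a4* on chromosome 9 with 27.9 and 28.8 kb. *Col4a1* on the minus strand and *Col4a2* on the plus strand of chromosome 8 run apart from starts that are 21 bases from each other, so that their promoter windows share 78 bases. RefSeq windows of 250 bases before to 50 after a start (GRCm38.p6) were found for 35 of the 44 members, 38 windows in all. The windows of this shared promoter are shown with those of *Col25a1* and *Col5a1*, the members with the lowest adjusted p in the comparison by age. They cover chr8:11312777-11313076 on the minus strand, chr8:11312555-11312854 on the plus strand, chr3:130180595-130180894 on the plus strand and chr2:27886175-27886474 on the plus strand. Capitals mark the motif CCAAT, the motif TATAAA or the motif GGGCGG on either strand.
Col4a1: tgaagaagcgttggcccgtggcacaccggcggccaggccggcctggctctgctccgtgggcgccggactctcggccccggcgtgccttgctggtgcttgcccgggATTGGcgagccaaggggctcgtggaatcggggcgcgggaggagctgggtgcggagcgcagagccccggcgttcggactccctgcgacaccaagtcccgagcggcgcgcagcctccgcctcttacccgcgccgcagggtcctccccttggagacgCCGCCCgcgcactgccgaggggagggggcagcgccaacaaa
Col4a2: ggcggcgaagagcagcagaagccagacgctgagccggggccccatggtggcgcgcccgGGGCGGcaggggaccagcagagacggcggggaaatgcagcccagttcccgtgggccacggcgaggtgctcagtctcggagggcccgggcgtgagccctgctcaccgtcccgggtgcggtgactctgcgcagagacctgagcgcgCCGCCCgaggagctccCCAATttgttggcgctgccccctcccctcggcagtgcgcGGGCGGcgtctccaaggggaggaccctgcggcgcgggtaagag
Col25a1: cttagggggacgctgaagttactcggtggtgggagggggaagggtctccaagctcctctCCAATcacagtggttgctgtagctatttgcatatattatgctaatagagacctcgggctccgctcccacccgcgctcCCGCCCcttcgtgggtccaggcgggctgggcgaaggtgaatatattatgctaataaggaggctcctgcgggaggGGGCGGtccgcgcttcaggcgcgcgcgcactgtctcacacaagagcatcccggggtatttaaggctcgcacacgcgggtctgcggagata
Col5a1: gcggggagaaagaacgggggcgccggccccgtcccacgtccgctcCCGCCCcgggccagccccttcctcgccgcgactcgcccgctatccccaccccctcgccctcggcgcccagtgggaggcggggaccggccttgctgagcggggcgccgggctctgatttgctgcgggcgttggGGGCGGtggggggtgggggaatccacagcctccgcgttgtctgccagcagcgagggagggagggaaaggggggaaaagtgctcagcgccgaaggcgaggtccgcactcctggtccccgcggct

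The start of the main coding transcript lay inside each of these windows, at the RefSeq start for *Col4a1*, *Col4a2* and *Col5a1* and 46 bases downstream for *Col25a1*. CCAAT began 145 bases before the start of *Col4a1*, 32 before that of *Col4a2* and 191 before that of *Col25a1*, and it was not in the window of *Col5a1*. GGGCGG was found in 23 of the 38 collagen windows (60.5%) and in 35.7% of all 32851 windows. CCAAT was found in 34.2% against 37.4%, and TATAAA in 13.2% against 13.6%. No match overlapped another in the 4 windows shown, and a match is a run of letters, not a site shown to be bound.

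Whether collagen genes differed between the ages was asked first in both genotypes together, 19 months against 4 months, with limma on log2 normalized counts. All 44 members passed the filter on low values. Of these, 10 were called, by a threshold of 0.1 on the adjusted p and of 0.72 on the log2 fold change, 6 higher and 4 lower. Of all 18731 genes tested, 14% were called, 4.52% higher and 9.49% lower. The median log2 fold change of the members was 0.19, against -0.15 over all genes. Quantile normalization brought the latter to -0.01, where 8 members were called higher and 4 lower and 1302 of 2626 called genes were higher, against 846 of 2623 before. For 7 of the 44 members the libraries of the ages did not overlap, which held for 19.2% of all genes.

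Among these 7, *Col25a1*, the transmembrane collagen of neurons, was lower at 19 months. Its normalized counts were 2444, 2662 and 1761 in 4-month WT and 2025, 1655 and 1934 in 4-month *Gde2*KO. They were 759.5, 878 and 804 in 19-month WT and 1103, 833 and 878 in 19-month *Gde2*KO. Each library of 19 months lay under each of 4 months. The highest of 19 months was *Gde2*KO A with 1103, the library of low depth and with little RNA of Y-linked genes. The gene fell by 1.24 on the log2 scale (SE 0.11, adjusted p = 2.38e-05), with a log2 fold change of -1.47 in WT and of -1.002 in *Gde2*KO. *Col23a1*, a further transmembrane collagen, had a median of 476 normalized counts at 4 months (345 to 609) and 258 at 19 months (216 to 303) and fell by 0.86 (adjusted p = 0.0018). *Col9a3*, a chain that binds to the surface of type II fibrils, had 335 (282 to 396.5) and 205 (182 to 265). It was lower by 0.68 (adjusted p = 0.00122), which passed the p but not the fold.

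The fibrillar chain *Col5a1*, which nucleates the assembly of type I fibrils, was higher at 19 months. Its normalized counts were 608, 789 and 728 in 4-month WT, 709.5, 1087 and 1016 in 4-month *Gde2*KO, 1943, 1830 and 1973 in 19-month WT and 1403, 1555 and 1647 in 19-month *Gde2*KO. The lowest library of 19 months stood above the highest of 4 months, and the gene rose by 1.09 on the log2 scale (SE 0.11, adjusted p = 4.89e-05). The beaded filament chain *Col6a2* had 334, 436 and 514 in 4-month WT, 598, 631 and 679 in 4-month *Gde2*KO, 997, 979 and 918 in 19-month WT and 896, 1059 and 929 in 19-month *Gde2*KO. It rose by 0.89 (SE 0.10, adjusted p = 0.000136), again without overlap. Its partner *Col6a1* had a log2 fold change of 0.57 (adjusted p = 0.0224), under the fold, and *Col19a1* had 0.63 (adjusted p = 0.00378), from a median of 666 to 921 normalized counts. *Col5a3* rose by 0.92 (adjusted p = 0.0129), with overlap through 4-month WT 1, which held 152 normalized counts against 46.6 to 92.8 in the other libraries of 4 months.

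Together with these changes, 5 of 6 smooth muscle markers were called higher at 19 months, by a median of 1.48 on the log2 scale over the 6, with summed levels of 25.1 to 43.3 normalized TPM at 4 months and 47.6 to 73.9 at 19 months. All 6 ependymal markers, 7 of 10 striatal and 6 of 12 hippocampal markers were called lower, and 3 of 5 blood markers higher. Of 16 markers of fibroblasts and meninges, 0 were called higher and 1 lower. Summed endothelial markers were 158 to 218 normalized TPM at 4 months and 182 to 299 at 19 months. Pericyte markers summed to 95.8 to 150 and 125 to 136, and choroid plexus markers to 8.61 to 42.5 and 12.6 to 20.3, all with overlap. The part of these cells, of brain region and of sex in the collagen differences was not tested.

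The partner of *Col5a1* in the type V helix, *Col5a2*, moved the other way. Its normalized counts were 648, 385 and 182 in 4-month WT, 193, 124 and 209.8 in 4-month *Gde2*KO, 79.2, 80.4 and 82.9 in 19-month WT and 91.2, 112 and 85.8 in 19-month *Gde2*KO. The 2 highest libraries were those with high hippocampal markers. The gene fell by 1.49 (adjusted p = 0.00157), and had a log2 fold change of -1.001 (adjusted p = 0.008) without these libraries. This choice, made after seeing the data, leaves WT 3 as the lone WT library of 4 months and assumes it to vary like the other groups. The ratio of *Col5a1* to *Col5a2* in normalized TPM, which the library's scale cannot move, was 0.711 to 6.53 at 4 months. At 19 months it was 3.86 in *Gde2*KO A, of low depth, and 11.1 to 19.7 in the other 5 libraries. By comparison the ratio of *Col4a2* to *Col4a1*, the chains of the shared promoter, stayed between 0.984 and 1.61 in all 12 libraries. The ratio of *Col1a2* to *Col1a1*, the type I chains, was 1.02 in 4-month WT 1 and 1.64 to 2.79 in the other libraries. Other pairs varied more than *Col4a2* and *Col4a1*. The ratio of *Col6a1* to *Col6a2* was 9.06 in 4-month WT 1 and 2.78 to 4.06 elsewhere, and that of *Col4a5* to *Col4a6* was 3.24 to 7.91.

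Of the other members called by age, several rested on the libraries that stood apart. *Col24a1*, a minor fibrillar collagen, had 10.8 and 35.7 normalized counts in 4-month WT 1 and 2 but 299 in WT 3, 232 to 377 in 4-month *Gde2*KO and 307 to 620 at 19 months. It rose by 1.93 (adjusted p = 0.0228), and by 0.63 (adjusted p = 0.0509) without WT 1 and 2, under the fold. *Col17a1*, a transmembrane chain of epithelial anchoring, had 5.77 and 4.84 in those libraries and 18.6 to 58.1 in the others, and its log2 fold change went from 1.05 to 0.19 without them. *Col28a1* went from 0.79 to 0.58 in the same way. *Col6a5*, a chain of type VI helices, had 29.6 to 110 normalized counts at 4 months and 12.1 to 29.6 in 4 libraries of 19 months. It was at 0 in 19-month WT A and *Gde2*KO A, where 3 reads would be 14.0 and 24.9 normalized counts. Its fitted change of -3.31 depended on these 0 values, and it was -1.56 (adjusted p = 0.0049) without the 2 libraries of low depth. Leaving out 4-month WT 1 and 2 leaves WT 3 alone for that group. In that fit *Col25a1*, *Col5a2* and *Col23a1* had log2 fold changes by age of -1.06, -1.001 and -0.79. *Col5a1*, *Col6a2* and *Col5a3* had 1.06, 0.75 and 1.35. The fibrillar *Col3a1*, not among the 10, had 0.99, with 84.2 to 371 normalized counts at 4 months and 235 to 431 at 19 months.

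**Figure D3:**
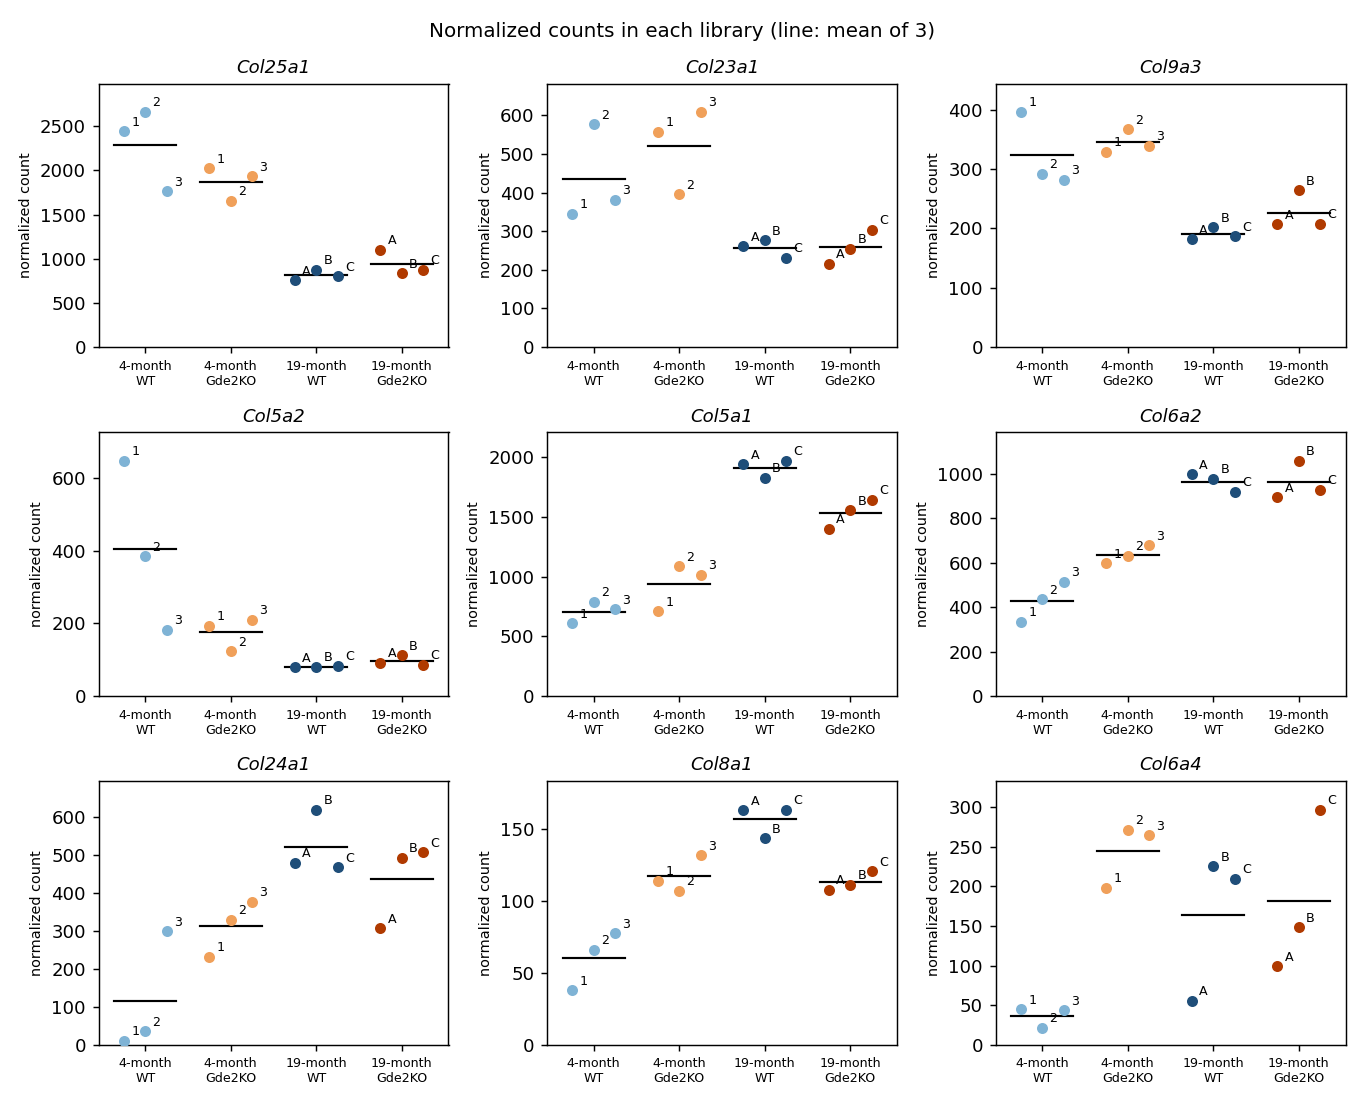
Normalized counts of 9 collagen genes in each library, with the library's number or letter beside its point and a line at the mean of 3. *Col25a1*, *Col23a1* and *Col9a3* lay lower in all libraries of 19 months, *Col5a1* and *Col6a2* higher, and 4-month WT 1 and 2 set the highest *Col5a2* and the lowest *Col24a1*.

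Within each genotype, the ages were compared on separate libraries with a shared spread. Among WT animals 12 members were called, 8 higher (6.29% of all genes) and 4 lower (7.4% of all genes). Among *Gde2*KO animals 5 were called, 2 higher (2.55% of all genes) and 3 lower (9.32% of all genes). Called in both were *Col25a1*, *Col23a1* and *Col5a1*, 25% of the WT list and 60% of the *Gde2*KO list, against 33.7% and 38.8% for all genes called. The sign was the same in both genotypes for 30 of 44 members (68.2%) and for 72.0% of all genes. In WT, *Col5a1* rose by 1.44, *Col6a2* by 1.19 and the short chain *Col8a1*, which vascular smooth muscle and endothelium make, by 1.42 (adjusted p = 0.00331). *Col6a4* rose by 1.97, *Col26a1* by 0.81, *Col28a1* by 1.50, *Col24a1* by 3.38 and *Col17a1* by 1.65 in WT, and *Col5a2* fell by 2.13, *Col9a3* by 0.75 and *Col23a1* by 0.73. In *Gde2*KO, *Col5a1* rose by 0.73, *Col5a3* by 1.01, and *Col23a1* and *Col25a1* had log2 fold changes of -1.001 and -1.002. *Col10a1*, a short chain of growth cartilage, had 15.8 to 18.8 normalized counts in 4-month *Gde2*KO and 0, 7.02 and 9.36 in 19-month *Gde2*KO. Its call there depended on the 0 of *Gde2*KO A (adjusted p = 0.142 without it). Without 4-month WT 1 and 2, and so with WT 3 alone for that group, *Col5a1* had a log2 fold change of 1.39 in WT. *Col6a2*, *Col8a1* and *Col5a3* had 0.91, 1.01 and 1.69 there, *Col25a1* had -1.12, and *Col17a1* turned to -0.064.

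RNA of Y-linked genes was low on both sides when *Gde2*KO A alone was set against the 3 *Gde2*KO animals of 4 months. This choice was made after seeing the data. The fit assumes the lone library to vary like the others, though it had 3707928 estimated reads, and 1 read was worth 8.29 normalized counts. In that fit *Col25a1* had a log2 fold change of -0.76 and *Col5a1* of 0.61, while *Col23a1*, with 26 reads in *Gde2*KO A, fell by 1.25. *Col10a1*, *Col6a5* and *Col7a1* had log2 fold changes of -5.13, -6.24 and -1.99 in the same fit. *Col10a1* and *Col6a5* were at 0 in *Gde2*KO A, and *Col7a1* stood at 33.2 normalized counts there, from 4 reads, against 95.9 to 186 in the other 11 libraries.

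**Figure D4:**
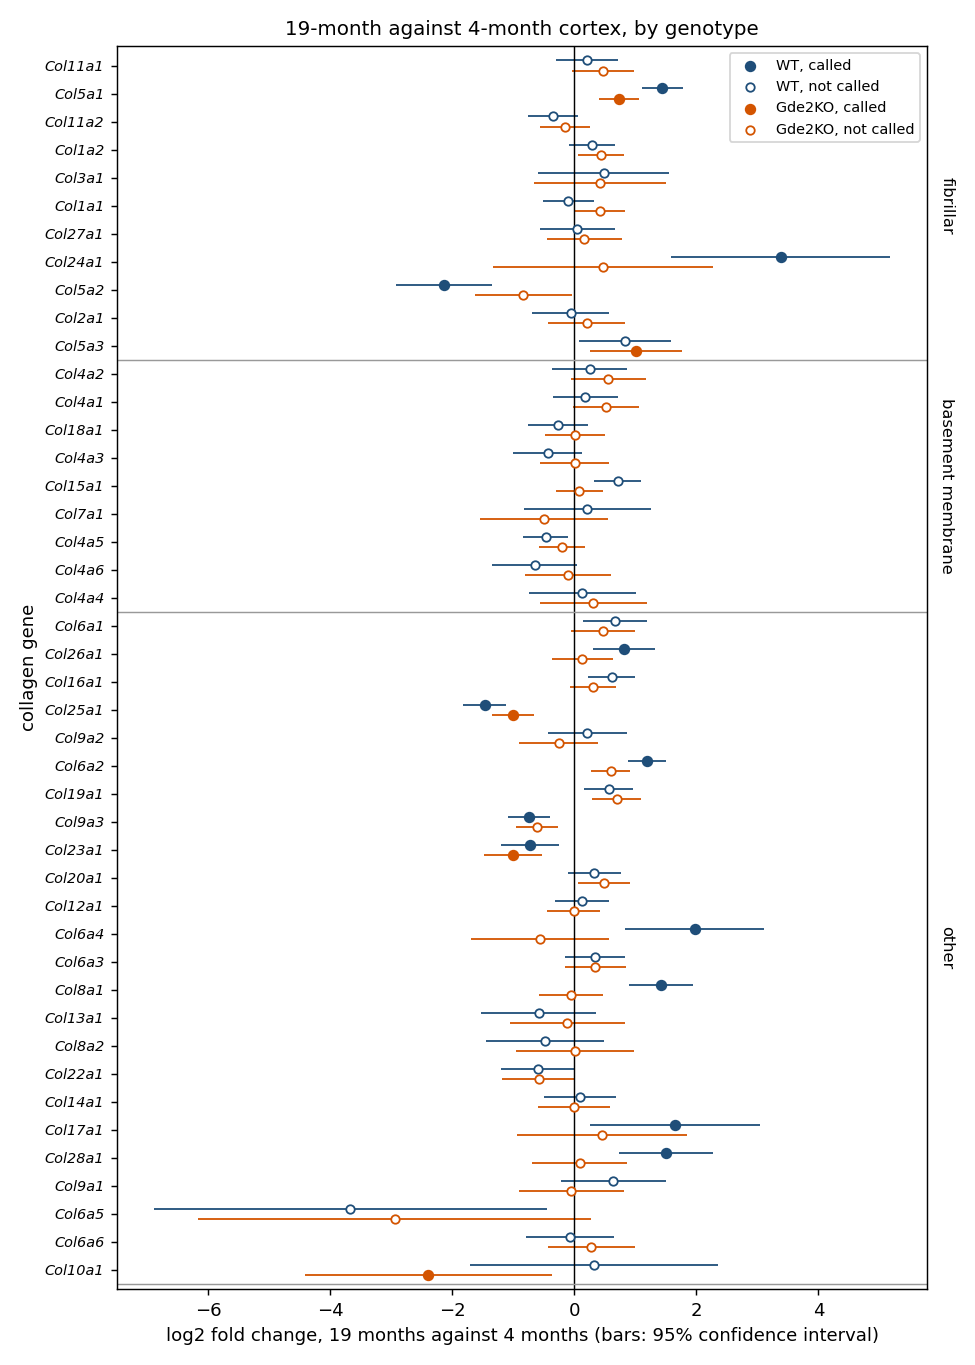
Log2 fold change of each collagen gene at 19 months against 4 months in WT (blue) and in *Gde2*KO (orange), with 95% confidence intervals, filled where called. Of WT, 12 genes are filled and of *Gde2*KO 5, and *Col25a1*, *Col23a1* and *Col5a1* are filled in both.

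No basement membrane chain was called by limma in any of the 6 comparisons, and by age in both genotypes 2 of the 9 had an unadjusted p under 0.05, against 8991 of all 18731 genes. *Col4a1* had 2626, 1652 and 1414 normalized counts in 4-month WT, 1105, 1399 and 1305 in 4-month *Gde2*KO, 2451, 2394 and 1516 in 19-month WT and 1402, 2011 and 2100 in 19-month *Gde2*KO. The 3 libraries of 4-month *Gde2*KO lay under all others, though narrowly, with 1399 against 1402 in 19-month *Gde2*KO A, of low depth. The other groups overlapped each other, and 4-month WT 1 was the highest. *Col4a2* was also highest in 4-month WT 1, with 3795 against 1501 to 3620 elsewhere. Its 4-month *Gde2*KO libraries did not lie under all others, as they held 1501 to 1756 and 4-month WT 3 held 1590. *Col15a1*, a basement membrane proteoglycan, passed the adjusted p by age (log2 fold change 0.39, adjusted p = 0.028) but not the fold. Of the other chains of high level, *Col4a1* and *Col4a2* had log2 fold changes by age of 0.35 and 0.41, *Col11a1* of 0.34 and *Col9a2* of -0.021. *Col16a1* with 0.46 (adjusted p = 0.0133) and *Col26a1* with 0.47 (adjusted p = 0.0407) passed the p but not the fold.

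The comparison of *Gde2*KO with WT was made at each age. At 4 months 1 of 44 members was called, where 0.126% of 19035 genes were. The beaded filament chain *Col6a4* had 44.7, 21.8 and 43.6 normalized counts in WT and 199, 272 and 265 in *Gde2*KO. All 3 libraries of *Gde2*KO lay above all of WT, and the gene rose by 2.78 on the log2 scale (SE 0.31, adjusted p = 0.0371). WT 1 and 2 are the libraries with high hippocampal markers, and the part of brain region in this difference was not tested. Of its level 48.8% lay in the protein-coding transcript. The call was lost when any 1 of the 3 *Gde2*KO libraries was left out. Over the 17 alternatives the log2 fold change stayed between 2.39 and 2.97, and the adjusted p reached 0.302. At 19 months *Col6a4* had 55.9, 225 and 209.8 in WT and 99.5, 149 and 297 in *Gde2*KO, with overlap, and the lowest of each genotype was the library of low depth. For 8 of 44 members the genotypes did not overlap at 4 months, against 15.4% of all genes. These included *Col8a1*, *Col10a1*, *Col6a2* and *Col28a1*, higher in *Gde2*KO, and *Col6a5*, *Col6a6* and *Col4a1*, lower. At this age 13 of 44 members and 2025 of 19035 genes had an unadjusted p under 0.05, and the WT side of each held the libraries WT 1 and 2.

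**Figure D5:**
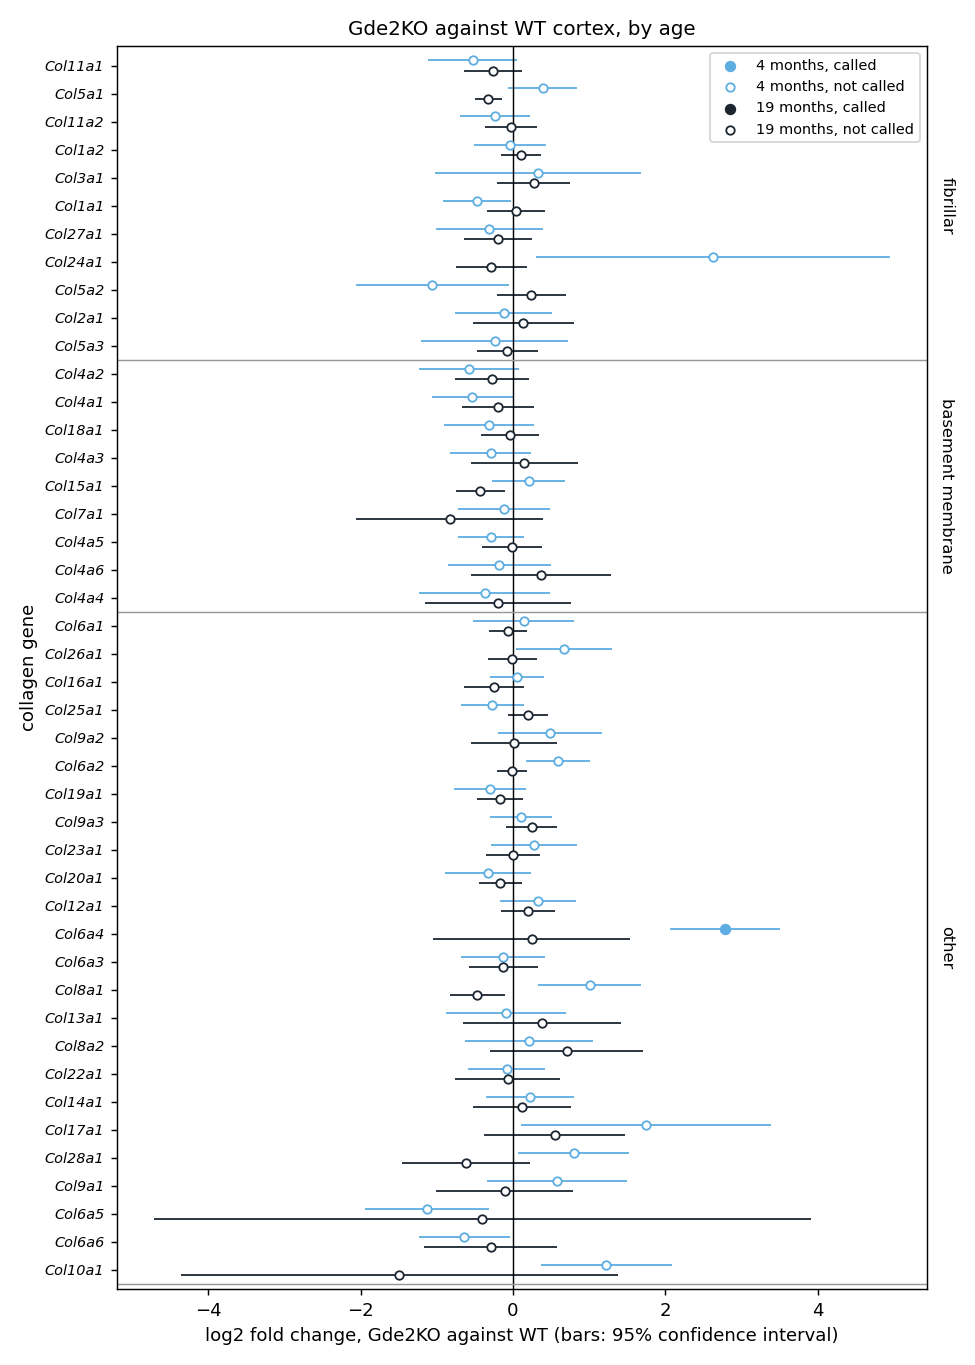
Log2 fold change of each collagen gene in *Gde2*KO against WT at 4 months (light blue) and 19 months (black), with 95% confidence intervals, filled where called. *Col6a4* at 4 months is the filled gene, and the intervals at 19 months are centered near 0 for most genes.

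At 19 months limma called 0 of 44 members, where 0.0969% of 18583 genes were called, and 3 members and 1285 of all genes had an unadjusted p under 0.05. The smallest p was that of *Col5a1*, which had 1943, 1830 and 1973 normalized counts in WT and 1403, 1555 and 1647 in *Gde2*KO. The genotypes did not overlap, with a log2 fold change of -0.32 (95% confidence interval -0.49 to -0.15, adjusted p = 0.477). *Col15a1* had -0.43 and *Col8a1* -0.47 (adjusted p = 0.647 for both). For 6 of 44 members the genotypes did not overlap, against 14.2% of all genes. With *Gde2*KO A left out, all remaining libraries had high RNA of Y-linked genes, and 0 members were called.

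Whether the genotype difference itself changed with age was tested as an interaction, in which 0 members were called by limma, against 0.048% of 18731 genes. An unadjusted p under 0.05 was found for 8 members and for 2408 of all genes, and with array weights 20 members (and 46.7% of all genes) were called. The smallest p was that of *Col8a1*, which had 37.9, 66.1 and 77.6 normalized counts in 4-month WT and 114, 107 and 132 in 4-month *Gde2*KO. At 19 months it had 163, 144 and 163 in WT and 108, 111 and 121 in *Gde2*KO. The knockout libraries were all above WT at 4 months and all below it at 19 months, and the interaction was -1.47 on the log2 scale (95% confidence interval -2.21 to -0.73, adjusted p = 0.368). Without 4-month WT 1 and 2, with WT 3 alone for that group, it was -1.06 (adjusted p = 0.873).

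Genes that make, bind or break down collagens were described from lists. Of 34 genes of collagen synthesis and cross-linking, 1 was called higher and 3 lower at 19 months, beside 4.52% and 9.49% of all genes. *Tgm2*, a transglutaminase that cross-links matrix proteins, had 5.21 to 6.89 normalized TPM at 4 months and 9.32 to 15.1 at 19 months and rose by 0.99 (adjusted p = 6.95e-05). *Tll1* and *Tll2*, of the tolloid family of proteases that trim procollagens, fell by 0.98 and 1.07, and the lysyl oxidase *Loxl1* fell by 0.84. The 11 collagen receptors had 0 genes called, with 3 of the 11 at an unadjusted p under 0.05, against 8991 of all 18731 genes. Of 15 genes of collagen breakdown, 13 were tested and 4 were called higher. The metalloproteinases *Mmp3* and *Mmp13* had 0 to 0.062 and 0 to 0.109 normalized TPM at 4 months and 0.21 to 0.478 and 0.182 to 0.605 at 19 months, so that both stayed low. *Mmp9* and the inhibitor *Timp1* rose by 0.86 and 0.75. Among 17 other basement membrane genes, *Lama5*, a laminin chain, rose by 0.79 and no other was called. Of 14 fibril proteoglycans and matricellular genes 3 were lower, *Tnc* by 1.74, *Thbs1* by 1.45 and *Dcn* by 1.09. *Dcn*, which is also a fibroblast marker, had 47.7 and 66.4 normalized TPM in 4-month WT 1 and 2 and 8.48 to 33.7 in the other 10 libraries. In the comparisons of genotype limma called no gene of these lists at either age or in the interaction, and of the synthesis list 2 genes at 4 months (2025 of 19035 genes in all) and 1 at 19 months (1285 of 18583 in all) had an unadjusted p under 0.05.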

How the data were processed

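RNA of 12 mouse cortices (3 WT and 3 *Gde2*KO at 4 months, 3 and 3 at 19 months) was sequenced by a service provider, and the authors quantified it per transcript with Kallisto and analysed it with Sleuth. Per the submitters' notes, bcl2fastq 2.17, Trimmomatic 0.36 and STAR 2.5.2b were also used, and the study's methods give the last 2 for splicing. The authors deposited 2 transcript tables of signal values, estimated counts and TPM, each scaled per library by a size factor. They are called normalized counts and normalized TPM here. In 46.98% to 62.9% of genes the values were whole reads within 0.01, so no count model was used. As 1 read was worth 4.66 and 8.29 normalized counts in the 2 libraries of low depth, low genes are imprecise there.

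Transcripts were summed to genes by the deposited identifiers. Of 118489 transcripts, 1673 had no gene (0.541% to 0.605% of a library) and were left out. Log2(normalized count + 0.5) was modelled with limma 3.58.1 (R 4.3.3) and an intensity trend, on genes with at least 5 normalized counts in 47% of the libraries of a fit, a scale that shrinks the fold changes of low genes, while a 0 in a library of low depth can enlarge them. Genotype was fitted within each age, and age and the interaction on all 12 libraries in 4 groups. A call needed an adjusted p (Benjamini-Hochberg, over all genes) under 0.1 and, except in the interaction, a fold change beyond 0.5 in natural log units. On simulated data with 200 genes changed by 2 on the log2 scale, 188 to 200 were recovered. Calls among the unchanged genes were 9 for genotype at 4 months, 0 at 19 months and 11 for the interaction. For age they were 0 in both genotypes together, 2 in WT and 1 in *Gde2*KO. Spread between libraries was set there by 1 dispersion value for each comparison, of 0.005 to 0.0232. Recovery of genes that change by less than 2 or that vary otherwise was not tested. The effect on calls of libraries that stand apart, or of values of 0 at low depth, was not tested there either. Replicates are separate animals. Same-numbered libraries of 4 months had correlations of deviations of 0.06, 0.0071 and -0.048, so the numbers were not taken as pairs.

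The members and lists were chosen with earlier results of these data known. Named were the 12 members of highest mean normalized TPM, every member called, the member with the smallest p in each comparison and, of the other lists, up to 4 called genes each. Others named in the text were chosen after their values were seen. Positions are from GENCODE vM21 (GRCm38), promoters from RefSeq (GRCm38.p6). Alternatives were the pseudocount, filter, quantile normalization, TPM, array weights, no trend, other sets of libraries and a replicate block.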

Additional observations from a re-analysis of the deposited data

Results flagged for a closer look

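*Col8a1* was higher in every *Gde2*KO library than in every WT library at 4 months and lower in every one at 19 months. The interaction of genotype and age was -1.47 on the log2 scale and did not pass the adjusted p (0.368). It was called in 2 of 22 alternatives, with array weights and without 4-month WT 3, and the lowest adjusted p of the alternatives was 0.000628. With array weights 46.7% of all genes were called, and 4-month *Gde2*KO 1 had a weight of 32.6, against 0.159 to 4.64 in the other libraries. The 4-month WT libraries 1 and 2 held high hippocampal markers, and without them the interaction was -1.06 (adjusted p = 0.873), with WT 3 as the lone WT library of 4 months.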

How the results depend on the processing

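At 4 months the count of 1 member called by genotype became 0 with no filter on low values, with normalized TPM, with no intensity trend and with all 12 libraries in the fit, and 9 with array weights. Leaving out a library gave 0 to 10, with 10 without WT 3 and 0 without each of the *Gde2*KO libraries. With the replicate number as a block the count was 1, and 21 of all genes were called against 24. No paired analysis was possible for the other comparisons because the columns of 19 months carry no replicate number. At 19 months the count of 0 held in all 16 alternatives. For the interaction the count of 0 became 20 with array weights, and leaving out a library gave 0 to 10, with 10 without 4-month WT 3. Over all genes these counts moved alike, to 15.4% and 46.7% of genes with array weights. For age in both genotypes the count of 10 stayed within 7 to 14, and 8 to 11 without a library. In WT the count of 12 became 20 with array weights and was 9 to 14 without a library. The highest share of all genes called in an alternative there was 22.6%, against 13.7% in the main fit. The count fell without 4-month WT 1 and 2, where WT 3 is alone for that group, and *Col17a1* turned from 1.65 to -0.064. In *Gde2*KO the count of 5 became 8 with quantile normalization and 14 with array weights, and 2 to 6 without a library, with 2 without 4-month *Gde2*KO 1 and 3 without *Gde2*KO 3. The highest share of all genes called in an alternative there was 17.8%, against 11.9% in the main fit. With array weights, 4-month *Gde2*KO 1 had a weight of 58.5 in the fit of 4 months and of 32.6 in those of all 12 libraries. The other libraries of 4 months had weights of 0.159 to 4.64. The cause was not tested in any of these. In the comparison by age of both genotypes together, *Col25a1* and *Col5a1* were called in all 22 alternatives, with changes of -1.41 to -1.06 and 0.99 to 1.23. *Col6a2*, *Col5a2* and *Col23a1* were also called in all 22. In *Gde2*KO alone, *Col5a1* lost its call in 4 of 24 alternatives and *Col25a1* in 1. Depth limits members such as *Col6a5* and *Col10a1*, as 11 of 44 had under 10 reads in a library and 2 had 0.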
